A study of Homo sapiens and Mus musculus with 19 samples.

Results

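The cytosolic ribosomal protein genes were followed in the RNA that stays on chromatin in mouse embryonic stem (mES) cells and in K562, a human erythroleukaemia cell line. They were taken as the protein-coding genes whose symbol is RPL or RPS followed by a number, with an optional A, X or L and a further digit, together with RPLP0, RPLP1, RPLP2 and RPSA, and without genes of chromosome Y. This gave 84 of 58721 genes counted in K562 (52 of the large and 32 of the small subunit) and 83 of 54446 genes counted in mES cells (51 and 32). The symbol alone chose them, and no measured value was used. The mES cells received either a control siRNA (siControl) or one directed at Nsun2 (siNsun2), whose product methylates cytosines in RNA, and were kept with LIF and a pair of kinase inhibitors on gelatin after feeder cells had been cleared by passaging. The K562 cells were TET2 wild type (WT) or came from an existing TET2 knockout (KO) line, TET2 being an enzyme that oxidises 5-methylcytosine. Each K562 genotype carried a lentiviral control shRNA (shControl) or one that targets MBD6 (shMBD6), whose product belongs to the methyl-binding-domain family, under puromycin selection, with a single shRNA in each case. The study elsewhere names K562 knockdown groups siNC and siMBD6, so the reagent is given here as the labels have it. There were 3 libraries in each of the 2 mES cell groups and the 4 K562 groups, and nothing in the labels says that they came from separate cultures, so that p-values measure only the spread between libraries.

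A ribosome holds a single copy of nearly every ribosomal protein, and the genes for these proteins are among the most strongly transcribed in a growing cell. Most of their mRNAs begin with a C followed by an unbroken run of pyrimidines, the 5′ terminal oligopyrimidine (TOP) tract, through which mTOR signalling and LARP1 control their translation. Many carry small nucleolar RNAs (snoRNAs) in their introns, which guide modification of ribosomal RNA. The stalk proteins RPLP0, RPLP1 and RPLP2 recruit translation factors, RPL5 and RPL11 form a particle with 5S rRNA that can bind MDM2, RPS6 is the substrate of the S6 kinases, and RPS19 is often mutated in Diamond-Blackfan anaemia. A few members are paralogues with narrower expression, such as RPL3L of striated muscle and RPL10L and RPL39L of testis. In chromatin RNA, which is rich in unspliced transcripts, counts on these genes reflect transcripts still attached to the template together with any mature mRNA carried along.

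The start sites of 10 human members are shown: 8 from both ends of the ranking by the K562 interaction between genotype and shMBD6, and 2 paralogues. Sequences are from RefSeq (GRCh38.p14), 5′ to 3′ on the strand of the gene, from 15 bases before the annotated start to 15 bases from it, with a TOP-type tract in capitals. A tract was counted as a C followed by at least 4 pyrimidines that began within 5 bases of the start. RPL41, RPL34, RPS14 and RPSA come first, then RPL37A, RPS18, RPS15 and RPLP2, and then the paralogues RPL22L1 and RPS27L. The windows lie at chr12:56116618-56116647 (plus), chr4:108620561-108620590 (plus), chr5:150449725-150449754 (minus), chr3:39406705-39406734 (plus), chr2:216498829-216498858 (plus), chr6:33272060-33272089 (plus), chr19:1438381-1438410 (plus), chr11:809952-809981 (plus), chr3:170870181-170870210 (minus) and chr15:63157463-63157492 (minus), each spanning a transcription start.
RPL41: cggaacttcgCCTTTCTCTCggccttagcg
RPL34: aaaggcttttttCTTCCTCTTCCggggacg
RPS14: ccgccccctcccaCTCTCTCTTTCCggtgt
RPSA: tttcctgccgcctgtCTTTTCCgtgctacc
RPL37A: gcaccgcgtctCTTCCTTTCTgggctcgga
RPS18: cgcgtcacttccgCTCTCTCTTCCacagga
RPS15: tgcgcaggcgcggaccaaagcgatctcttc
RPLP2: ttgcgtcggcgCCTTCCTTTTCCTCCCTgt
RPL22L1: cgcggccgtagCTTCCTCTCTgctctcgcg
RPS27L: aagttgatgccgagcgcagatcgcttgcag

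Of the 67 human members in the promoter table, 54 (80.6%) had such a tract within 5 bases of a listed start, against 25.2% of the 27305 genes in the table. With the tract required to begin exactly at the start, the share was 70.1% of members (47) against 5.14% of all genes. In 13 members no such tract began within 5 bases of a listed start. Among them were the paralogues RPL26L1, RPL7L1 and RPS27L and also RPS15, RPS26, RPS29 and RPS4X. A tract further from the start, such as the one that ends the printed RPS15 window, was not counted. On either strand of the 300 bases listed around each start, the ETS-type letters CCGGAA were present for 58.2% of members and 20.1% of all genes, the GC-box letters GGGCGG for 58.2% and 48.3%, the YY1-type letters CCATNTT for 26.9% and 18.6%, and TATAAA for 10.4% and 14%. A match describes the sequence only and does not show that a factor binds.

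Gene counts ran from 58078323 to 66832780 per mES cell library and from 52158403 to 102070223 per K562 library, and reads on the members made up 248556 to 305267 and 107920 to 248269 of them. Levels are in CPM, the count of a gene per 1000000 counts of its library size, which was scaled by TMM as in the edgeR fit. Statements on the order or overlap of libraries in CPM hold under this scaling. In mES cells, Nsun2 RNA on chromatin was 133, 126 and 130 CPM with siControl and 98.8, 106 and 103 CPM with siNsun2, a log2 change of -0.34 (SE 0.03, edgeR adjusted p = 2.78e-16). In TET2 WT K562, MBD6 RNA was 43.3, 42.7 and 38.6 CPM with shControl and 31.0, 25.7 and 27.2 CPM with shMBD6 (log2 change -0.57, SE 0.08, edgeR adjusted p = 1.83e-07). In TET2 KO cells it went against the label: 30.6, 30.8 and 29.4 CPM with shControl, and 30.6, 38.3 and 34.2 CPM in the libraries labelled shMBD6 (log2 change 0.19, SE 0.08, edgeR adjusted p = 0.0574). TET2 RNA did not differ by the test between KO and WT under shControl (log2 change 0.09, SE 0.04, edgeR adjusted p = 0.0735), and counts over the whole gene are no check of a small deletion. MBD6 RNA was also lower in TET2 KO than in TET2 WT under shControl (log2 change -0.46, SE 0.08, edgeR adjusted p = 6.5e-06), and the reason was not tested. Every statement below on TET2 KO libraries, with either label, carries these doubts. The WT pair of groups is the K562 comparison that does not rest on them. Of the K562 markers, TFRC, TAL1, GATA1 and KLF1 were present and HBG2 and HBE1 were at 0 in all groups. Of the mES cell markers, Esrrb, Zfp42, Tdgf1 and Nanog were present and Sox2 was at 0. Whether these values of 0 come from the way reads were counted was not tested, and they are not read as absence of expression. Feeder fibroblast markers were low, at 33.8 to 36.1 CPM summed over 7 genes with siControl and 28.6 to 31.0 CPM with siNsun2, and 6 lymphoid and monocyte markers summed to 2.80 to 6.55 CPM in K562.

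Not every member could be measured. In K562, RPL17 and RPS10 had 0 counts in all 12 libraries and RPL26 and RPL36A had at most 2 and 1 counts. Each of these 4 overlaps another annotated gene on its own strand (RPL17-C18orf32, RPS10-NUDT3 and RPL36A-HNRNPH2 are read-through genes with the member inside), and an overlap of this kind can remove reads that fit both genes from the count, so that these values are not read as expression. RPL10L, which has no such neighbour, had at most 4 counts. In mES cells Rpl13 and Rpl24 had 0 counts and Rps10 had 2 to 11, again with an overlapping gene on the same strand. The other members passed the filter on low counts, 78 of 84 in K562 and 80 of 83 in mES cells. RPL13A, RPL22 and RPS15A in K562 and Rpl13a and Rpl19 in mES cells also overlap a gene that reaches beyond them and are uncertain in level. Others hold a gene inside, on their own strand, and are uncertain too, such as RPL36 (HSD11B1L) and RPS9 (a pseudogene and a lncRNA). In all, 41 of the 84 human members overlapped some gene on their own strand, snoRNAs included. Ribosomal protein genes have many processed copies elsewhere in the genome, and reads with more than 1 alignment were not counted (4.77% to 4.83% of read records in mES cells and 10.1% to 11.2% in K562), so levels may be underestimates to an unknown and unequal degree.

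The members were short genes. Their median span was 5548 bases in human and 3368 bases in mouse, against 27550 and 17419 bases for all protein-coding genes, and exons covered a median of 53.2% and 55.9% of the span, against 16.8% and 20.5%. A snoRNA was annotated inside 28 of 84 human members (33.3%, 60 snoRNAs in all) and 30 of 83 mouse members (36.1%, 58 snoRNAs), against 1.37% and 1.27% of protein-coding genes. RPL4 held 5 of them.

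On chromatin, members stood above the typical gene in both cell types. Per kb of exon, the median tested member was at 7.96 CPM in K562 TET2 WT shControl libraries and at 27.9 CPM in mES cell siControl libraries, whereas the median protein-coding gene tested was at 2.35 and 2.2 CPM. In K562, RPL10A and RPS12 of the large and small subunit came first, at 35.1 ± 2.89 and 33.8 ± 1.72 CPM per kb of exon (SD, n = 3), followed by RPL13A at 25.4 ± 1.01, RPL11 at 22.0 ± 0.777 and RPL35 at 21.3 ± 1.77. The first pair did not differ beyond its spread, nor did RPL11 and RPL35. The lowest tested members were RPL3L at 0.287 ± 0.0559, RPS27L at 0.616 ± 0.0821, RPS9 at 1.11 ± 0.103, RPS28 at 1.52 ± 0.302 and RPS20 at 2.39 ± 0.123 CPM per kb of exon.

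In mES cells the order was another. Rplp1 led at 117 ± 5.16 CPM per kb of exon, followed by Rpl4 at 102 ± 1.45, Rpl38 at 85.1 ± 2.12, Rpl3 at 78.6 ± 1.05 and Rps3a1 at 74.7 ± 1.41. At the other end were the paralogues Rpl3l at 0.542 ± 0.117, Rpl39l at 1.13 ± 0.140 and Rpl10l at 1.31 ± 0.263, then Rpl13a at 3.13 ± 0.0929 and Rps13 at 7.08 ± 0.414. Over the 75 members tested in both species, the levels per kb of exon in the control libraries had a Spearman's rho of 0.135, and per kb of gene span 0.230. The points are genes and not replicates, exon lengths come from different annotations, and the counting rules above touch each gene differently.

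Paralogue pairs were unequal, and the scale mattered. RPL3, a core member near the catalytic centre, was at 14.9 CPM per kb of exon in K562 and 78.6 in mES cells, and RPL3L at 0.287 and 0.542. RPL22 and RPL22L1 were close in K562 (6.09 ± 0.244 and 6.72 ± 0.217) and apart in mES cells (28.2 ± 0.803 and 11.7 ± 0.703). RPL39L stood at 16.8 ± 2.42 in K562 and RPL39 at 3.55 ± 0.602, an order that turned when levels were taken per kb of gene span (0.289 and 1.47), since RPL39L spans 59961 bases. In mES cells Rpl39l (1.13) was below Rpl39 (10.5) on the exon scale, and also per kb of span (0.201 and 5.23). RPS27 was above RPS27L in K562 (11.7 and 0.616 CPM per kb of exon), while in mES cells Rps27 at 9.89 ± 0.352 was below Rps27l at 14.7 ± 1.16.

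**Figure D1:**
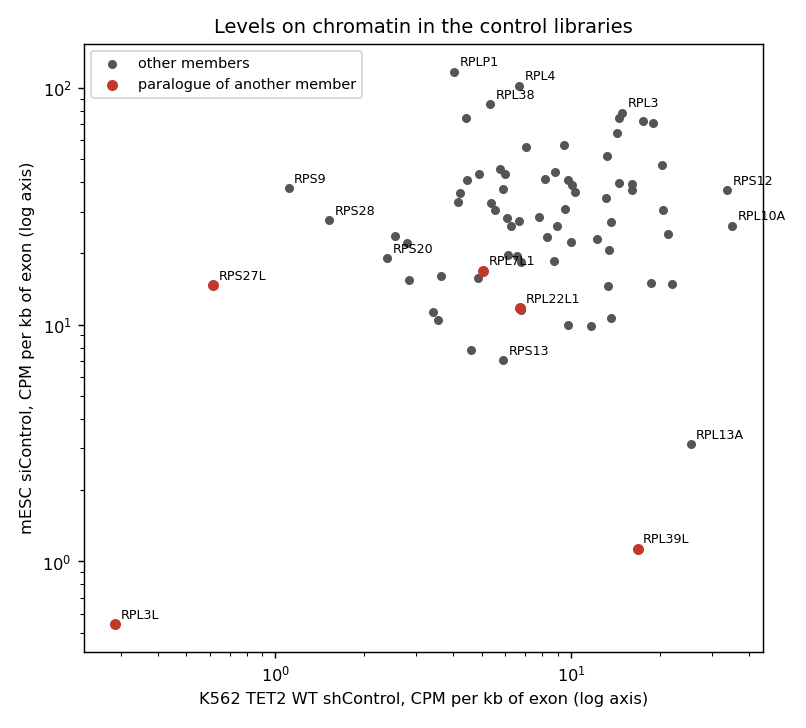
Level of each member tested in both species, as mean CPM per kb of exon over 3 control libraries, in K562 TET2 WT shControl (x axis, log scale) and mES cell siControl (y axis, log scale); red points are paralogues of another member. RPL3L is lowest on both axes, RPL39L and RPL13A are high only on the K562 axis, and most members fall in a cloud without a clear slope (rho 0.135 over 75 genes).

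The members' summed share of gene counts differed between groups by little in absolute terms. In mES cells it was 0.457%, 0.456% and 0.450% with siControl and 0.435%, 0.428% and 0.437% with siNsun2. All siNsun2 libraries lay below all siControl libraries, with means of 0.433% and 0.454%. In K562 the share was 0.253%, 0.243% and 0.242% in TET2 WT shControl libraries, 0.233%, 0.238% and 0.227% in TET2 KO libraries labelled shMBD6, 0.216%, 0.207% and 0.208% in TET2 WT shMBD6 libraries and 0.210%, 0.205% and 0.201% in TET2 KO shControl libraries. Of these 4 groups, the last pair overlapped, and each of the others was apart from its neighbours. With 3 libraries against 3, the two-sided exact permutation test cannot go below p = 0.1, which it gave for the mES cell difference and for each of the 4 K562 differences, also after adjustment.

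**Figure D2:**
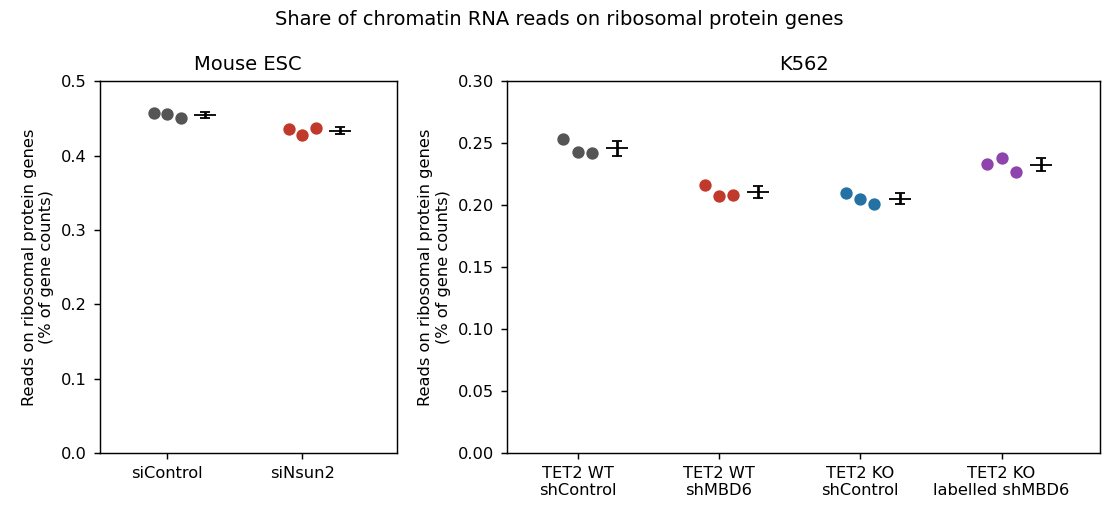
Reads on ribosomal protein genes as a percentage of all gene counts (y axis, from 0) in each library; points are libraries, bars beside them the mean and SD of 3. The siNsun2 libraries (0.428% to 0.437%) sit below siControl, and in K562 the TET2 WT shMBD6 and TET2 KO shControl libraries (0.201% to 0.216%) sit below the other 2 groups.

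Mitochondrial-encoded RNA and other contents moved with these groups. In TET2 WT cells it made up 0.0220% to 0.0238% of gene counts with shControl and 0.0405% to 0.0499% with shMBD6. In TET2 KO cells the range was 0.0483% to 0.0540% with shControl and 0.0233% to 0.0273% for the libraries labelled shMBD6. The summed level of 9 K562 markers was 785 to 807, 523 to 538, 452 to 458 and 637 to 647 CPM in the same order, and 20 abundant cytosolic mRNAs took 0.0969% to 0.101%, 0.0859% to 0.0883%, 0.0876% to 0.0885% and 0.103% to 0.107% of gene counts. In mES cells, reads outside annotated genes were 19.6% to 20.2% of records with siControl and 28.9% to 29.9% with siNsun2. The part of these differences in the members' values was not tested. In bulk libraries, fewer cells of a type and less RNA per cell cannot be told apart, and every value is relative to the rest of the same library. The study added ERCC spike-in RNA, but the count files used here hold 0 ERCC lines, so no spike-in scaling was made.

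After Nsun2 knockdown, most measured ribosomal protein genes were a little lower on chromatin. Of 80 members tested, 65 were lower, none was higher and 15 did not pass, at an edgeR adjusted p under 0.05. At an unadjusted p under 0.05 the counts were 66 lower and 0 higher, and DESeq2 called 70 lower and 0 higher. The split depended on the scaling: it was 24 lower and 7 higher with total gene counts as library sizes (median -0.03), and 17 lower and 10 higher with TMM factors from genes of log2 CPM 5 or more (median -0.01). The median log2 change was -0.22, from -0.50 for Rpl4 to 0.38 for Rpl3l, which did not pass. Among all 27603 genes tested, 24.3% were called lower and 25.8% higher (50.2% in either direction), with a median log2 change of 0.14. Genes of like level had close medians and a smaller share of lower calls, a difference that was not tested. Of 5323 other protein-coding genes with a mean log2 CPM of 5 or more, 79.1% were called lower and 8.28% higher (median -0.21), and of the 154 of these with a span of at most 10 kb, 77.9% (median -0.20). At the same level 52 of 56 members (92.9%) were called lower, with a median of -0.22.

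Rpl4, a large-subunit protein with 5 snoRNAs inside its mouse gene, was at 204, 204 and 209 CPM with siControl and at 145, 145 and 146 CPM with siNsun2. Its fall was the largest of the members (log2 change -0.50, SE 0.03, edgeR adjusted p = 1.94e-29), and its groups were far apart. Rpl22l1, the paralogue of Rpl22, went from 24.8, 22.2 and 22.6 to 16.8, 17.0 and 16.5 CPM (log2 change -0.47, SE 0.07, edgeR adjusted p = 1.11e-08), and Rpl22 itself from 82.0 ± 2.34 to a lower level by -0.19 (SE 0.04, edgeR adjusted p = 5.85e-06). Rpl39, a small protein of the exit tunnel, fell by 0.43 on the log2 scale from 15.1, 15.2 and 14.9 to 11.8, 10.3 and 11.4 CPM, and Rps13 by 0.42 from 17.9, 19 and 20.2 to 14.8, 13.3 and 14.6 CPM. Rpl17 also fell by 0.43. In all 5 genes the siNsun2 libraries lay below every siControl library.

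By role, the falls were unequal in size. In the stalk, Rplp1 fell by 0.20, Rplp0 by 0.15 and Rplp2 by 0.11 on the log2 scale, and all 3 had the opposite sign with TMM factors from genes of log2 CPM 5 or more, as did Rpl11, Rps19, Rpl22 and Rpl7l1. Of the 5S particle, Rpl5 fell by 0.37 and Rpl11 by 0.15. Rpsa, which also serves as a laminin receptor, went from 138, 126 and 128 to 102, 98.1 and 99.8 CPM (log2 change -0.39, SE 0.03, edgeR adjusted p = 5.82e-19). Rps6 changed by -0.26 and Rps19 by -0.19. Among the core genes that have a paralogue, Rpl7 fell by 0.42, Rpl26 by 0.35, Rpl36a by 0.33, Rpl3 by 0.26, Rps4x by 0.23 and Rpl10 by 0.22. Of the paralogues, Rpl3l (0.38, SE 0.29), Rpl10l (0.33, SE 0.24), Rpl39l (0.25, SE 0.29), all at low levels, and Rps27l (0.04, SE 0.09), at a level above Rps27, did not pass, whereas Rpl7l1, at 59.2 ± 1.21 CPM with siControl, fell by 0.20. Across the 80 members the change had a Spearman's rho of -0.305 with the mean level, as a description over genes.

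**Figure D3:**
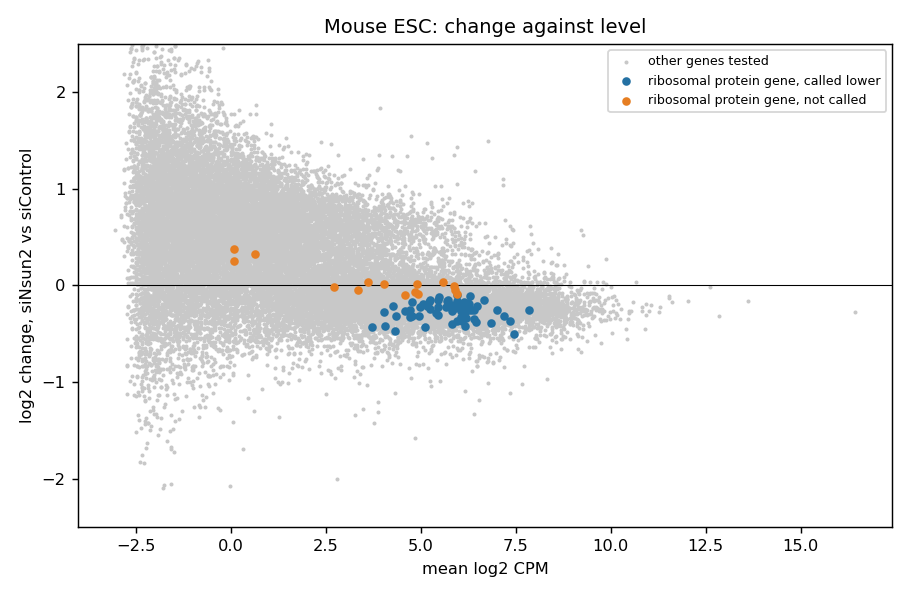
Log2 change with siNsun2 (y axis) against mean log2 CPM (x axis) for each gene tested in mES cells; blue, members called lower (65); orange, members not called (15); grey, other genes, of which 69 beyond 2.5 on the y axis are not drawn. Members lie in the band of well-expressed genes below 0, and the members above 0.2 are at the low end of the x axis.

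Large-subunit genes (42 of 49 lower, median -0.21) and small-subunit genes (23 of 31, median -0.22) were alike in their medians. Members with an annotated snoRNA inside were lower in 25 of 29 cases (median -0.26) and the others in 40 of 51 (median -0.20). Other TOP mRNA genes, such as the elongation factor and eIF3 genes, were lower in 14 of 17 (median -0.24), nucleolar ribosome biogenesis genes in 30 of 43 with 1 higher (median -0.18), and genes of the mitochondrial ribosome in 31 of 74 (median -0.17). Genes of abundant cytosolic mRNAs outside these lists were lower in 15 of 20 (median -0.31). The median of all genes shifted by 0.18 with total gene counts as library sizes and by 0.20 with TMM factors from genes of log2 CPM 5 or more. The members' median minus that of all genes was -0.35 in the main fit. A change of library size moves all genes alike, so these scalings cannot test this gap. It was -0.53 with no filter on low counts and -0.19 with a minimum of 50 counts, where other genes were tested.

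In TET2 WT K562 cells, shMBD6 was accompanied by lower ribosomal protein gene RNA on chromatin. Of 78 members tested, 55 were lower, 2 were higher and 21 did not pass. The median log2 change was -0.39. Over all 26023 genes tested, 24.7% were called lower and 17.7% higher, with a median of 0.10. The other short and well-expressed protein-coding genes were again close, with 100 of 137 (73.0%) lower and a median of -0.40, while well-expressed genes of any length had 61.7% lower and a median of -0.18. At that level 22 of 28 members (78.6%) were lower, with a median of -0.36. With a span of at most 10 kb as well, 13 of 16 were lower (median -0.28). The counts are from the fit of all 12 K562 libraries, and with TMM factors from genes of log2 CPM 5 or more, which shifted the median of all genes by 0.16, the members had 8 higher and 36 lower.

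RPL41, the shortest ribosomal protein, was at 9.15, 11.8 and 10.8 CPM with shControl and at 5.64, 5.13 and 5.48 CPM with shMBD6 in TET2 WT cells, with no overlap of the libraries (log2 change -0.96, SE 0.14, edgeR adjusted p = 4.81e-07). RPSA went from 62.6, 61.2 and 64.0 to 35.6, 36.4 and 36.2 CPM (log2 change -0.80, SE 0.05, edgeR adjusted p = 1.47e-14), and RPS14, whose loss contributes to anaemia in a myelodysplastic deletion syndrome, from 34.3, 32.1 and 33.8 to 19.5, 19.2 and 18.7 CPM (log2 change -0.81, SE 0.07, edgeR adjusted p = 9.37e-11). In all 3 genes the shMBD6 libraries lay below every shControl library. RPL22L1 fell by 0.81 and RPS26 by 0.78 on the log2 scale. The starts of RPL41, RPS14 and RPSA printed above all hold a TOP-type tract, as do those of the pair that rose.

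The pair that rose was RPL37A and RPS18. RPL37A, a zinc-binding protein of the large subunit, was at 51.0, 56.0 and 55.7 CPM with shControl and at 84.1, 86.0 and 89.0 CPM with shMBD6 in TET2 WT cells (log2 change 0.67, SE 0.05, edgeR adjusted p = 1.5e-13). RPS18, of the small-subunit head, went from 14.1, 11.1 and 11.6 to 18.5, 15.7 and 16.5 CPM (log2 change 0.47, SE 0.10, edgeR adjusted p = 2.88e-04). In both, every shMBD6 library was above every shControl library. RPLP2 was also higher in each shMBD6 library (33.6, 30.8 and 30.2 against 28.5, 26.4 and 24.0 CPM) but did not pass (log2 change 0.26, edgeR adjusted p = 0.0657).

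By role in this comparison, the stalk was divided: RPLP0 fell by 0.57 and RPLP1 by 0.60 on the log2 scale, apart from RPLP2. RPL5 fell by 0.57 and RPL11 by 0.24, RPS19 by 0.40 and RPS6 by 0.19. Of the paralogue pairs, both genes fell in RPL22 (-0.60) and RPL22L1, and in RPL7 (-0.59) and RPL7L1 (-0.61). RPL26L1, at 3.49 ± 0.659 CPM with shControl, fell by 0.62, its partner RPL26 being unmeasured. RPL3 fell by 0.29 and RPL10 by 0.52. RPL39 (-0.25, SE 0.15), RPL39L (0.11, SE 0.11), RPS27 (-0.17, SE 0.13) and RPS27L (-0.31, SE 0.17) did not pass, nor did RPL3L (0.38, SE 0.52).

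The knockout was next compared with the wild type under shControl, a comparison that shares its TET2 WT shControl libraries with the last. MBD6 RNA was also lower in KO here (log2 change -0.46), and its part in the members' values was not tested. Of 78 members, 34 were lower in TET2 KO, 16 were higher and 28 did not pass, with a median of -0.14; among all genes 22.3% were lower and 23.5% higher (45.8% in either direction), with a median of -0.05. Of other short and well-expressed genes, 63.5% were lower and 13.1% higher (median -0.27); at that level and span, 7 of 16 members were lower and 5 higher (median -0.04), and the difference was not tested. RPS14 stood at 17.8, 20.2 and 20.6 CPM in KO against 34.3, 32.1 and 33.8 CPM in WT (log2 change -0.78, SE 0.07, edgeR adjusted p = 1.25e-10), RPL41 changed by -0.82, RPL32 by -0.60, RPL26L1 by -0.57 and RPS4X by -0.53. On the other side, RPL8 was at 24.3, 24.6 and 24.2 CPM in KO against 16.4, 13.3 and 15.8 CPM in WT (log2 change 0.69, SE 0.11, edgeR adjusted p = 5.44e-06), RPS18 changed by 0.63, RPL37A by 0.58, RPL19 by 0.48 and RPLP2 by 0.44. In all 10 of these genes the KO and WT libraries did not overlap. With total gene counts as library sizes, the split was 5 higher and 48 lower, the median of all genes having shifted by -0.18.

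Between TET2 KO libraries, those labelled shMBD6 had more members higher than shControl: 25 were higher, 16 lower and 37 not called, with a median of 0.12, against 15.7% of all genes higher and 20.6% lower (median -0.07). Other short and well-expressed genes were higher in 83 of 137 cases (60.6%, median 0.24). Of the 16 members of that level and span, 7 were higher and 5 lower (median 0.10). RPL34 went from 34.2, 34.6 and 33.5 CPM to 55.1, 53.9 and 55.0 CPM (log2 change 0.68, SE 0.06, edgeR adjusted p = 3.78e-11), without overlap, and RPS14 (0.58), RPL26L1 (0.57), RPL41 (0.54) and RPL15 (0.54) also rose. RPS15 went from 12.2, 11.5 and 12.5 CPM to 7.43, 7.40 and 7.39 CPM (log2 change -0.70, SE 0.12, edgeR adjusted p = 1.94e-05). RPLP2 fell by 0.67, RPL37A by 0.66, RPS18 by 0.64 and RPL31 by 0.53. MBD6 RNA itself was not lower in these libraries, and with total gene counts as library sizes the split was 43 higher and 11 lower.

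With shMBD6 in the label of both, TET2 KO libraries had 52 members higher and 6 lower than TET2 WT, with 20 not called and a median of 0.32, where 30.1% of all genes were higher and 28.5% lower (median -0.03). Other short and well-expressed genes were higher in 103 of 137 cases (75.2%, median 0.33). Members of that level and span were higher in 13 of 16 cases (median 0.25). RPL4, which had 27.5, 27.6 and 25.4 CPM in WT, had 58.6, 53.9 and 50.8 CPM in KO (log2 change 1.02, SE 0.06, edgeR adjusted p = 4.52e-15). RPL7 (1.00), RPL34 (0.96), RPL37 (0.95) and RPLP1 (0.94) followed, all without overlap of the libraries. RPL37A fell by 0.75, RPS15 by 0.54, RPLP2 by 0.49, RPS18 by 0.48 and RPL31 by 0.35. RPL3L, near the floor at 0.168 to 0.542 CPM in KO and 0.909 to 1.16 CPM in WT, had a log2 change of -1.77 (SE 0.54, edgeR adjusted p = 0.00609). With TMM factors from genes of log2 CPM 5 or more, which shifted the median of all genes by -0.22, the split was 30 and 17; with total gene counts it was 33 and 12, and with DESeq2 size factors 38 and 11.

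The change with the shMBD6 label was tested for a difference between genotypes in the same model. For 49 members the change was more positive in TET2 KO than in TET2 WT and for 8 it was more negative, with 21 not called and a median interaction of 0.45 on the log2 scale; over all genes 23.9% and 25.5% were called in these directions (median -0.19). Other short and well-expressed genes had a median of 0.63, with 99 of 137 more positive (72.3%). Among the 16 members of that level and span, 10 were more positive and 1 more negative (median 0.32). Under TMM factors from genes of log2 CPM 5 or more, 40 members were more positive and 15 more negative. Of the 55 members lower in WT, 25 were higher in KO and 28 were not called there. RPL37A and RPS18, the pair higher in WT, were lower in KO. No member was higher in both genotypes.

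**Figure D4:**
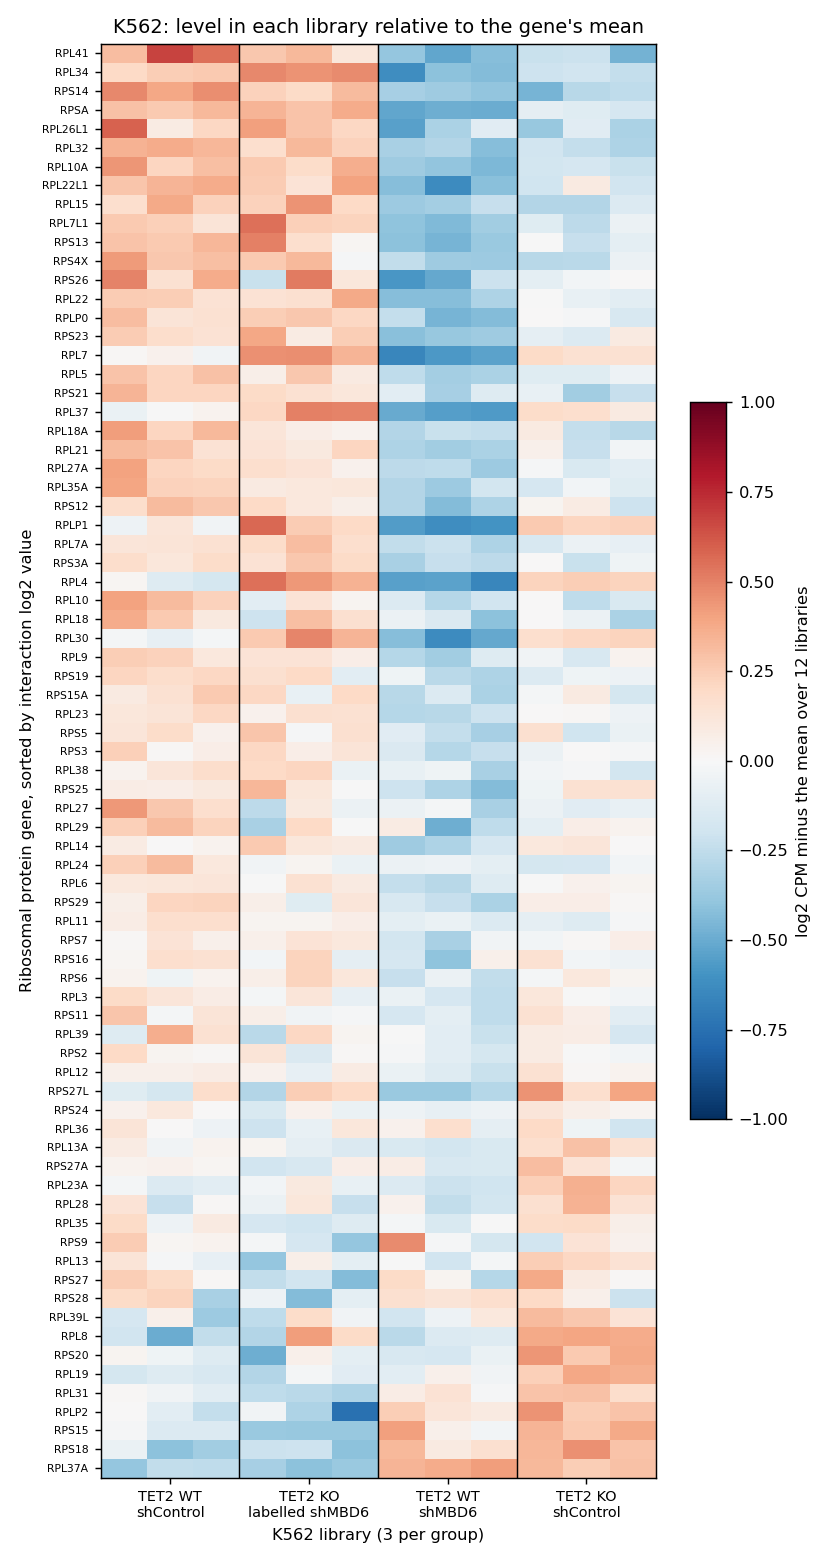
Log2 CPM of 76 members in each of the 12 K562 libraries (columns, 3 per group) minus the mean of the gene over the libraries, with genes (rows) sorted by their interaction value from most positive; RPL3L, with few counts, and another tested member are not drawn. Members at the top, from RPL41 and RPL34, are high in the first 2 groups of columns, TET2 WT shControl and KO labelled shMBD6, and those at the bottom, from RPL37A up to RPL31, are high in the last 2 groups.

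RPL41 had the most positive interaction value (1.5, SE 0.19, edgeR adjusted p = 5.66e-08), followed by RPL34 (1.41, SE 0.09), RPS14 (1.38, SE 0.11), RPSA (1.25, SE 0.07) and RPL26L1 (1.19, SE 0.31). At the other end stood RPL37A (-1.33, SE 0.07, edgeR adjusted p = 1.61e-17), RPS18 (-1.11, SE 0.15), RPS15 (-0.96, SE 0.17), RPLP2 (-0.93, SE 0.16) and RPL31 (-0.64, SE 0.08). The stalk thus held values of both signs, RPLP0 at 0.87 and RPLP1 at 0.72 against RPLP2. Of the 4 groups, TET2 WT shControl had the highest mean CPM for 33 of 78 members, the KO libraries labelled shMBD6 for 21, KO shControl for 19 and WT shMBD6 for 5, while WT shMBD6 had the lowest mean for 59. A TOP-type tract was found for 32 of 41 members with a positive call and a listed start (78.0%) and for 5 of 6 with a negative call (83.3%). Gene span had a Spearman's rho of 0.0456 with the interaction value across 78 members, and of -0.453 across 5420 well-expressed protein-coding genes.

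**Figure D5:**
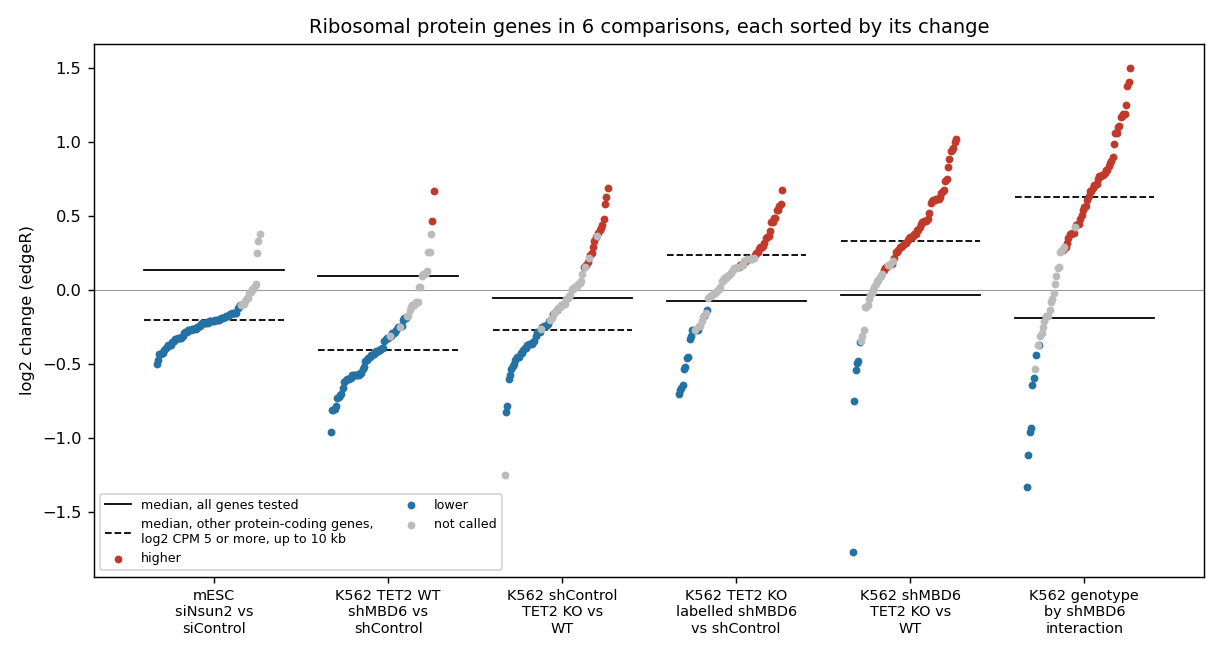
Log2 change (y axis) of every tested member in 6 comparisons, each sorted from lowest to highest; red and blue points passed the edgeR test at an adjusted p under 0.05 and grey points did not. Solid lines mark the median of all genes tested and dashed lines that of other protein-coding genes with a mean log2 CPM of 5 or more and a span of at most 10 kb. The members' median was close to the dashed line for siNsun2 (-0.22 and -0.20) and for shMBD6 in TET2 WT (-0.39 and -0.40) and lay between both lines for TET2 KO against WT under shControl.

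Subunit and snoRNA content went with small differences in medians in K562, which were not tested. For shMBD6 in TET2 WT, large-subunit genes were lower in 35 of 48 (median -0.43) and small-subunit genes in 20 of 30 (median -0.32), and snoRNA hosts in 21 of 27 (median -0.41) against 34 of 51 other members (median -0.34). For the interaction the medians were 0.57 and 0.35 by subunit and 0.64 and 0.43 by snoRNA content. Without the members that overlap a gene reaching beyond their own span, 52 of 75 were lower with shMBD6 in TET2 WT. The median was -0.39 as before. Members that only hold another gene inside, such as RPL36 and RPS9, were kept.

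Several related gene groups had most of their calls in the same direction as the members. Ribosome biogenesis genes, which act in the nucleolus, were lower with shMBD6 in TET2 WT in 40 of 42 (median -0.58), and in TET2 KO libraries labelled shMBD6 33 of 42 were higher (median 0.36). Other TOP mRNA genes had 13 of 16 lower in WT (median -0.34) but 3 higher and 4 lower in KO (median 0.04). Genes of the mitochondrial ribosome had 49 of 69 lower and 3 higher in WT (median -0.41) and 26 higher and 3 lower in KO (median 0.22). Of 20 genes of abundant cytosolic mRNAs, 12 were lower and 3 higher in WT (median -0.47). In KO, 11 of them were higher and 3 lower (median 0.19). Mitochondrial-encoded genes went the other way, with 17 of 32 higher in WT (median 1.06) and 18 of 32 lower in KO (median -1.63). These lists were written with earlier results of the data known.

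The members were also read by chromosome. The K562 members on chromosome 15 that could be measured were RPL4, RPLP1 and RPS27L. In TET2 KO against WT under shControl, RPL4 was higher (log2 change 0.33, SE 0.06, edgeR adjusted p = 6.56e-05), and RPLP1 (0.22, SE 0.10) and RPS27L (0.37, SE 0.16) did not pass; under shMBD6 all 3 were higher, at 1.02, 0.94 and 0.41. Of the 870 genes tested on that chromosome, 49.7% were higher in KO under shControl (median 0.53) and 50.2% under shMBD6 (median 0.59). Among all genes tested, 23.5% and 30.1% were higher. On chromosome 8, RPL7, RPL8, RPL30 and RPS20 had 3 of 4 higher in KO under shControl (median 0.33), where 36.0% of the 977 genes tested there were higher (median 0.23). Under shMBD6 again 3 of 4 were higher (median 0.60), whereas 34.3% of the genes of that chromosome were (median -0.02). Without the members of both chromosomes, 12 of 71 were higher and 34 lower in KO under shControl (median -0.19). Under shMBD6, 46 of these 71 were higher in KO and 6 lower (median 0.29).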

How the data were processed

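Chromatin-associated RNA was analysed in 18 libraries. Per the labels, the submitters' processing notes name Trimmomatic 0.39, HISAT2 2.2.1, HTSeq 0.12.4 and GENCODE M19 and v29, and the authors deposited raw read counts per gene for each library. The methods name HTSeq for annotated genes and featureCounts for chromatin RNA; the deposited files end in the summary lines that HTSeq writes, among them one for reads shared by overlapping genes. The feature type and strand setting of the counting are not given in the sources used here. Exon lengths, spans and overlaps came from another GENCODE release and may differ from those used for counting.

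Counts were analysed with edgeR 4.0.16 (R 4.3.3): filterByExpr with a minimum count of 10, TMM scaling, and the quasi-likelihood test with Benjamini-Hochberg adjustment over all genes tested, called at 0.05. The K562 groups shared 1 fit and mES cells had their own. Shares were compared by an exact permutation test (SciPy 1.17.1). Levels are CPM on the TMM-scaled library sizes of the main fit, and fold changes are from the same fit. Shares are of unscaled gene counts. The test was checked on simulated data. DESeq2 1.42.0, other scalings, other filters and left-out libraries were alternatives. Samples were grouped by their labels.

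The members, gene lists and tests were chosen with earlier results of these data known. Named members were those with set roles, the 5 largest called changes in each direction at a mean of at least 1 CPM, the 5 highest and lowest levels per exon kb, and the K562 members of chromosome 15. RPL30, RPS20 and members named by their overlap or call group fell outside this rule and were named after their values were seen. Some members are counted in the totals but are not reported here one by one.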

Additional observations from a re-analysis of the deposited data

Results flagged for a closer look

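For 10 K562 members the change between shMBD6 and shControl libraries differed between genotypes by the interaction term of the edgeR fit. The interaction, as the log2 change in TET2 KO minus that in TET2 WT, was 1.5 for RPL41, 1.41 for RPL34, 1.38 for RPS14, 1.25 for RPSA and 1.19 for RPL26L1. It was -1.33 for RPL37A, -1.11 for RPS18, -0.96 for RPS15, -0.93 for RPLP2 and -0.64 for RPL31. These are the 5 largest called values in each direction. They rest on the TET2 KO libraries labelled shMBD6, in which MBD6 RNA was not lower than in TET2 KO shControl. The share of mitochondrial-encoded RNA also differed between these groups, and its part in the values was not tested.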

How the results depend on the processing

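With siNsun2, total gene counts as library sizes gave 7 members higher and 24 lower, TMM factors from genes of log2 CPM 5 or more gave 10 and 17, and a rule of at least 1.5-fold left 0 lower. Between TET2 KO and WT under shControl, the 1.5-fold rule left 3 higher and 3 lower, and total gene counts gave 5 higher. For shMBD6 in TET2 WT, members higher numbered 1 under the 1.5-fold rule, 6 with DESeq2 size factors, total gene counts, a minimum of 50 counts or the DESeq2 test, 7 with no filter and 8 with the TMM factors above; lower were 16 and 36 under the 1.5-fold rule and those TMM factors. For the TET2 KO libraries labelled shMBD6, the 1.5-fold rule left 1 higher and 4 lower, and total gene counts gave 43 higher. Between TET2 KO and WT with shMBD6 in the label, the 1.5-fold rule left 20 higher and 2 lower, total gene counts gave 33 and 12, the TMM factors 30 and 17, and both DESeq2 settings 11 lower. For the interaction, negative calls were 13 with both DESeq2 settings and 15 with the TMM factors. For these scalings the change is the choice of library size, and other causes were not tested.

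Single members changed sign with siNsun2 under the TMM factors: Rplp1 to 0.01, Rplp2 to 0.10, Rpl22 to 0.02, Rps19 to 0.02, Rpl11 to 0.06, Rplp0 to 0.05 and Rpl7l1 to 0.0. With total gene counts, Rplp2 was at 0.07, Rpl11 at 0.03 and Rplp0 at 0.03. Between TET2 KO and WT with shMBD6 in the label, RPL3 was at -0.05 and RPL11 at -0.08 under the TMM factors, and RPL11 at -0.01 with total gene counts. As a share of all read records, the members' difference in percentage points was -0.0547 with siNsun2, -0.0321 between KO and WT under shControl, 0.0181 for the label in KO and 0.0168 between genotypes with the shMBD6 label. As a share of gene counts without the 10 highest genes, the siNsun2 difference was -0.0275.

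Leaving out each library in turn gave 59 to 65 lower and 0 to 0 higher with siNsun2, 13 to 14 higher and 28 to 32 lower between genotypes under shControl, 2 to 4 higher and 51 to 53 lower for shMBD6 in WT (4 without TET2 WT shMBD6 replicate 3), 18 to 25 higher and 12 to 17 lower in KO, 46 to 51 and 6 to 7 between genotypes with the shMBD6 label, and 48 to 50 and 6 to 11 for the interaction. The share differences ranged from -0.0229 to -0.0181, -0.0433 to -0.0375, -0.0389 to -0.0325, 0.025 to 0.0305 and 0.020 to 0.0257 in the order of the first 5. With only the TET2 WT groups in the fit, which leaves out the KO libraries, 3 members were higher and 56 lower with shMBD6.

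For libraries with the same replicate number, the correlation of their deviations ran from -0.0174 to 0.0254 over 21 pairs. With different numbers it ran from -0.0298 to 0.0317 over 42 pairs. No pairing by number was seen, but these correlations are over all genes tested and cannot exclude a shared batch. With the replicate block, 65, 48, 59, 41, 59 and 57 members were called in the 6 comparisons, in the same order. Of 2485 values of named members under an alternative, 2298 kept direction and side of the threshold. Counts per library were 11 to 112 for RPL3L, 41 to 86 for Rpl3l, 52 to 77 for Rpl39l and 69 to 116 for Rpl10l, which limits the precision of their changes.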
